A study of Mus musculus with 24 samples.

Results

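The *Hox* genes of the mouse were examined on 24 arrays of liver, brain, heart and skeletal muscle. They were taken as every array probe whose RefSeq accession belongs to a gene named *Hoxa*, *Hoxb*, *Hoxc* or *Hoxd* with a number. This gave 39 of the 21368 genes named on the array, measured by 44 of its 55681 probes. The 39 genes lie in 4 clusters, with 11 *Hoxa* genes on chromosome 6, 10 *Hoxb* genes on chromosome 11, 9 *Hoxc* genes on chromosome 15 and 9 *Hoxd* genes on chromosome 2. Of these, 5 genes have 2 probes each, *Hoxa9*, *Hoxa13*, *Hoxb3* and *Hoxd11* among them, and the brighter of them, by its mean over the 24 arrays, stands for the gene.

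*Hox* genes encode homeodomain transcription factors that give cells their position along the body axis. Within a cluster they lie in the order of their paralogue number. In the embryo, low numbers are active from the hindbrain backwards and high numbers toward the tail and the ends of the limbs. Adult fibroblasts, muscle, fat and neurons are known to keep much of the pattern of the place where they arose, and the forebrain and midbrain lie in front of the *Hox* domain.

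The tissues came from 3 WT male mice and 3 male mice with the *Rap1* I312R knock-in allele (labelled RAP1 MUT and called KI here), and each of the 6 mice gave all 4 tissues. RAP1 is a telomere protein encoded by *Terf2ip*, and the mutated residue lies where it binds TRF2. The line was made with CRISPR/Cas9 and crossed back 4 times to C57BL6 mice, a strain that the study's methods give as C57BL/6N. Mice WT1 and KI1 were 5 months old, and WT2, WT3, KI2 and KI3 were 2 months old. Each sample was hybridized to its own 1-color Agilent array. RNA of liver and brain was prepared with one kit and RNA of heart and muscle with another, so kit and tissue cannot be told apart where a pair of tissues crosses this line. Levels are log2 signals relative to the 75th percentile of the signals of the same array, so that 0 is that percentile. The percentile itself ran from 470.7 to 1389 signal units, and 56.5% to 72.7% of the probes of an array were well above background. These flags, set by the scanner software for each spot, are the measure of detection used below. A gene's level is compared between arrays only, since the probes of different genes differ in brightness.

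Each tissue carried its own defining transcripts on all 6 arrays. The liver arrays measured 8 of 8 hepatocyte markers, the brain arrays 9 of 9 neuron markers, the heart arrays 8 of 8 heart muscle markers and the muscle arrays 9 of 9 skeletal muscle markers. Some arrays also stood apart. The muscle of KI3 had *Nefl*, a neurofilament gene of neurons, at 0.69, against -3.70 in KI1 and -7.37 to -7.19 in the other 4 muscles. The hearts of KI1 and KI3 had *Ucp1*, the uncoupling protein of brown fat, at 4.96 and 5.93, against -7.72 to -1.03 in the other 4 hearts. Counts of called *Hox* genes in pairs with heart or muscle are also given without these 3 arrays, as are those values given below that move by over 1.5 times without them. The heart of WT1 and the muscle of KI1 differed from the rest in *Myl7* and in slow fibre genes, as given below. They were not left out with these 3 arrays. *Terf2ip* differed between KI and WT by 0.12 in liver, -0.02 in brain, -0.41 in heart and -0.28 in muscle on the log2 scale, with limma adjusted p of 1, 1, 0.663 and 0.939. A point mutation does not remove its transcript, so this level does not check the labels.

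The sequences in front of the genes at the ends of the detected stretches are shown first, because the muscle pattern described below stops between them. The 250 bases before the start of *Hoxa11*, *Hoxa13*, *Hoxd10* and *Hoxd11* are printed from 5′ to 3′ on the strand of the gene, with each CG in capitals. They come from RefSeq on GRCm38.p6, at chr6:52245811-52246060 and chr6:52260881-52261130 on the minus strand for the *Hoxa* genes, and on the plus strand at chr2:74691641-74691890 for *Hoxd10* and chr2:74679308-74679557 and chr2:74682073-74682322 for the alternative starts of *Hoxd11*.
Hoxa11: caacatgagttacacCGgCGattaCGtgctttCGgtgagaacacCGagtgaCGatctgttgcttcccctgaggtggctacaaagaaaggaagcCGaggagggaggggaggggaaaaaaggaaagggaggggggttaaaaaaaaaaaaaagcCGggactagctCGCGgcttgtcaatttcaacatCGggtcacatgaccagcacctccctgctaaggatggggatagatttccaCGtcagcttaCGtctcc
Hoxa13: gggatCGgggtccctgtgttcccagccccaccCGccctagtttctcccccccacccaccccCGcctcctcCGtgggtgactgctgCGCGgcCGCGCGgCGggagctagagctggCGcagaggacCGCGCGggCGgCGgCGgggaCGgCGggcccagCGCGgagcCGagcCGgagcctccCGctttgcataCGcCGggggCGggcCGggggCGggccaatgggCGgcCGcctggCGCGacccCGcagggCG
Hoxd10: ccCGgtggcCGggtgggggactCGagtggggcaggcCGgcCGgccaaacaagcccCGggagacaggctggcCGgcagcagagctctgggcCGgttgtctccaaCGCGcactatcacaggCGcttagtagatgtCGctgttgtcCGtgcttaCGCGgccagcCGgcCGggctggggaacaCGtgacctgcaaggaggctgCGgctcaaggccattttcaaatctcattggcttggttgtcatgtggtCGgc
Hoxd11, first start: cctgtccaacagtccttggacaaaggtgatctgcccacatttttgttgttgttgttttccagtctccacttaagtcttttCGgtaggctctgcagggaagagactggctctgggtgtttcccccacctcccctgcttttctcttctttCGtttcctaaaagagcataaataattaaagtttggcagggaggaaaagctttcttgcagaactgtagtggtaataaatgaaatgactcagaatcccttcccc
Hoxd11, second start: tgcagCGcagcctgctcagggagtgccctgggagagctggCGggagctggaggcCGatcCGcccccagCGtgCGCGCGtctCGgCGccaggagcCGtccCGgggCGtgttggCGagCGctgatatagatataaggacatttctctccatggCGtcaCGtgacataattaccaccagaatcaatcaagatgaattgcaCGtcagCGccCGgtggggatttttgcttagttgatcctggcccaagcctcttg

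These windows hold 13 CG in *Hoxa11*, 35 in *Hoxa13*, 20 in *Hoxd10*, and 2 and 20 at the starts of *Hoxd11*. The table of promoters matched 22 of the 39 *Hox* genes with 24 windows. Their median number of CG was 12.5, against 6 over 32851 promoters of the same length, and their median GC content was 58.6% against 52.4%. The motif TGATNNAT, bound by Hox proteins with their Pbx partners, was searched on both strands and occurred in 4 of the 24 *Hox* windows (16.7%) and in 7.68% of all promoters. The 4 windows were those of *Hoxa2*, *Hoxb1*, *Hoxb8* and the second start of *Hoxd11*. A match of letters is a description and no evidence of binding.

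Muscle had the most *Hox* genes. A gene was called detected in a tissue if 3 or more of its 6 arrays had the probe well above background. By this rule 29 of 39 *Hox* genes were detected in muscle, 19 in brain, 17 in heart and 16 in liver. Of all probes, 58.2% were detected in muscle, 68% in brain, 62.6% in heart and 63.3% in liver, so that muscle combined the lowest share of probes with the highest number of *Hox* genes. On single arrays, 27 to 30 *Hox* genes were well above background in muscle, 14 to 18 in heart, 12 to 17 in liver and 6 to 24 in brain. The muscle arrays did not overlap with those of any other tissue, and the brain arrays had the widest spread. *Hox* genes well above background on all 6 arrays numbered 27 in muscle, 13 in heart, 11 in liver and 2 in brain, which were *Hoxa9* and *Hoxb3*. The second probe of each of these 2 genes was well above background on 3 of 6 brains. By the looser flag of a positive and significant signal, the counts were 34 in muscle, 27 in brain, 25 in liver and 24 in heart.

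The counts differed most at the posterior end. Of the 8 anterior genes (paralogues 1 to 3), 5 were detected in each of the 4 tissues. *Hoxa2*, *Hoxa3*, *Hoxb2* and *Hoxb3* were among them in every tissue. Of the 15 central genes (paralogues 4 to 8), 15 were detected in muscle, 11 in heart, 11 in brain and 8 in liver. Of the 16 posterior genes (paralogues 9 to 13), 9 were detected in muscle, 3 in liver, 3 in brain and 1 in heart. The posterior gene of the heart was *Hoxa9*, those of the liver *Hoxa9*, *Hoxb9* and *Hoxc10*, and those of the brain *Hoxa9*, *Hoxb9* and *Hoxc12*.

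**Figure D1:**
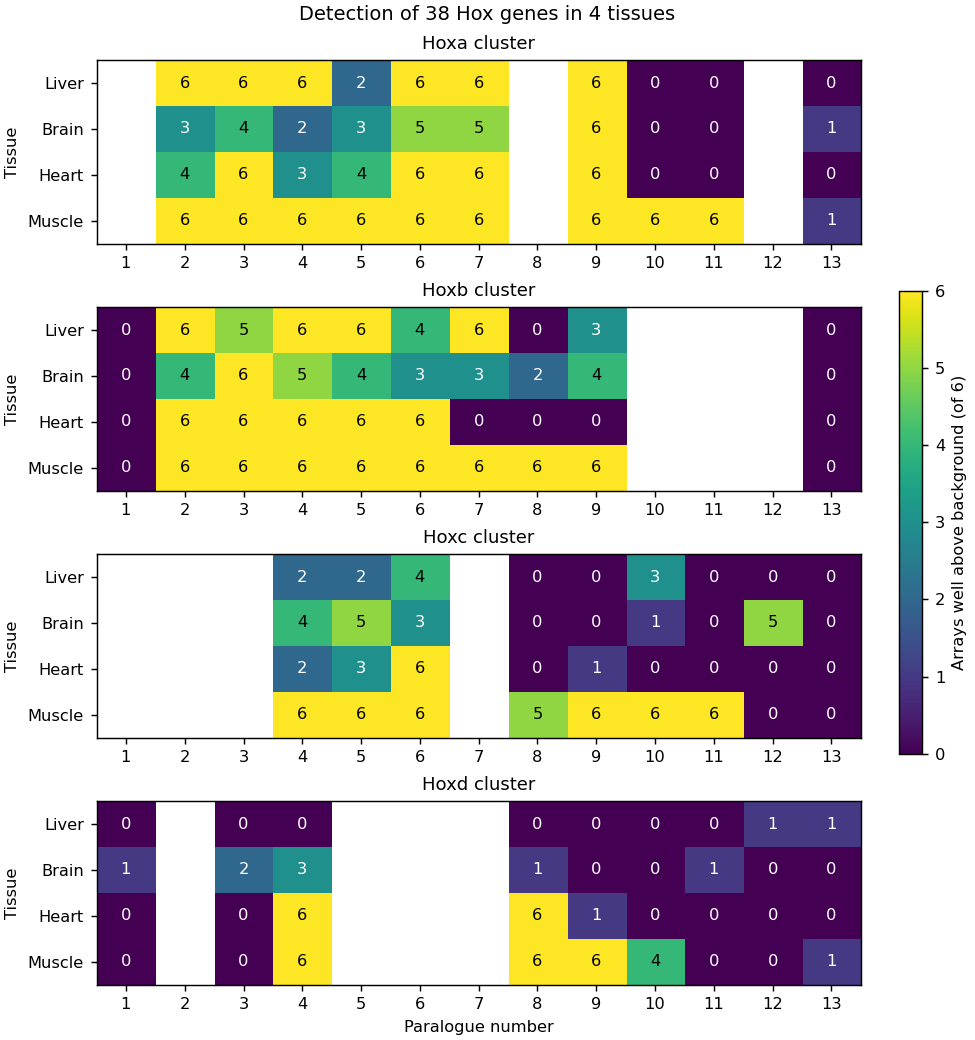
Number of arrays, of 6 per tissue, on which each of 38 *Hox* genes was well above background, with the paralogue number on the horizontal axis, the tissue on the vertical axis and a panel for each cluster. Blank cells are paralogues that are not members or not shown, and muscle is the only tissue with counts of 4 or more of 6 at *Hoxa10*, *Hoxa11*, *Hoxc8* to *Hoxc11*, *Hoxd9* and *Hoxd10*.

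The clusters were unequal. In liver, brain, heart and muscle, detection reached 7, 7, 8 and 10 of the 11 *Hoxa* genes, and 7, 7, 5 and 8 of the 10 *Hoxb* genes. It reached 2, 4, 2 and 7 of the 9 *Hoxc* genes, and 0, 1, 2 and 4 of the 9 *Hoxd* genes. The *Hoxd* cluster was the least detected cluster in all 4 tissues, with a tie between *Hoxc* and *Hoxd* in the heart. In all, 12 *Hox* genes were detected in 4 tissues, 6 in 3, 3 in 2, 9 in 1 and 9 in none. Of the 9 genes of a single tissue, 8 belonged to muscle (*Hoxa10*, *Hoxa11*, *Hoxb8*, *Hoxc8*, *Hoxc9*, *Hoxc11*, *Hoxd9* and *Hoxd10*) and 1 to brain (*Hoxc12*). The 9 genes of no tissue were *Hoxa13*, *Hoxb1*, *Hoxb13*, *Hoxc13*, *Hoxd1*, *Hoxd3*, *Hoxd11*, *Hoxd12* and *Hoxd13*.

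At the extremes, *Hoxa9*, a regulator of blood progenitors and of posterior identity, was well above background on all 24 arrays. *Hoxb1*, *Hoxb13* and *Hoxc13*, known from the embryonic hindbrain, the prostate and the hair follicle, were well above background on none. *Hoxa10*, *Hoxa11* and *Hoxc11* were well above background on all 6 muscle arrays and on 0 of the 18 other arrays, a pattern shown by 52 of all probes (0.0934%). Second probes gave the same picture for *Hoxa13* (1 of 24 arrays) and *Hoxd11* (none). The second probe of *Hoxa9* was well above background on 0 of 6 hearts and 3 of 6 brains, where the probe used was so on all 6.

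Levels were compared between tissues on all 24 arrays with limma for the 30 *Hox* genes detected in at least 1 tissue. This fit shares a single estimate of the spread over all tissues. Where a gene varied more among the brains than elsewhere, its SE and p in pairs with brain are too small. The 9 genes detected in none were not tested. The 8 genes detected in muscle alone passed this filter through muscle, so the filter itself favours a higher muscle level for them. They are among the genes called higher in muscle in each pair below, and they enter the medians. *Hoxc12* likewise passed through brain alone. Between muscle and liver, 25 of 30 *Hox* genes were called at an adjusted p of 0.05, all higher in muscle. Of all 42469 probes tested, 71.1% were called in this comparison and 36.3% were called higher in muscle. Between muscle and brain, 28 *Hox* genes were higher in muscle and 1 lower, against 70.2% of all probes called and 41.4% higher. Between muscle and heart, 20 were higher and 0 lower in muscle, against 43.5% and 22.4%. The median log2 difference of the 30 *Hox* genes was 4.23 against liver, 4.23 against brain and 3.12 against heart, while that of all probes was 0.06, 0.30 and 0.07. Of the called differences, 15 of 25 against liver, 21 of 29 against brain and 11 of 20 against heart were between tissues that both had arrays well above background. The others have a measured level on one side only. The fit without the hearts of KI1 and KI3 and the muscle of KI3 called 25, 29 and 20 *Hox* genes in these pairs. The hearts of WT3 and KI3 shared a slide with all the muscles, and 22 *Hox* genes were called within that slide. The heart and muscle of KI3, both in that fit, are among the arrays that stood apart. Muscle shared no slide with liver or brain, so slide and tissue cannot be told apart there. In bulk tissue, fewer cells of a type and less RNA per cell cannot be told apart either. The summed linear level of 6 fibroblast genes ran from 333 to 880 in muscle, 272 to 570 in heart, 83.9 to 110 in liver and 14.1 to 56.4 in brain, and its part in the *Hox* levels was not tested.

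Posterior *Hoxa* and *Hoxc* genes were among those higher in muscle than in each other tissue. *Hoxc9*, which marks thoracic levels of the embryo, had log2 levels of 4.38, 4.04 and 4.37 in the WT muscles and 4.43, 4.06 and 3.54 in the KI muscles. It was well above background in 0 livers, 0 brains and 1 heart, that of WT2 at -3.88, while the other hearts lay between -7.98 and -7.17. With 5 of 6 hearts not well above background, the log2 difference from heart was 11.1 (SE 0.42, adjusted p = 7.69e-14), and 11.75 without WT2. Its level in muscle was at least 2692-fold higher than in liver (adjusted p = 2.35e-15) and at least 2738-fold higher than in brain (adjusted p = 5.25e-15). A bound of this kind sets the mean of the brighter tissue against a limit on each array of the other. The limit is the dimmest signal of any probe called well above background there, or the gene's own signal where that is higher. An adjusted p beside a bound tests the plain difference of levels, background signals included, and not the bound. For *Hoxb7* in heart and *Hoxc12* in liver, the gene's own signal, not well above background, largely sets the limit. On average it was -5.82 and -6.52, against mean levels of -5.91 and -6.55, so these bounds are close to plain ratios.

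*Hoxc10*, a gene of lumbar levels and the hindlimb, ran from 2.60 to 3.74 in muscle (median 3.26), from -6.28 to -5.24 in liver (median -5.55) and from -7.65 to -5.70 in brain (median -7.02). It was well above background in 3 livers, 1 brain and 0 hearts. The muscle level was 479-fold that of liver (log2 difference 8.91, SE 0.32, adjusted p = 3.88e-15) and at least 869-fold that of heart (adjusted p = 6.90e-15). *Hoxc11*, active in the embryo toward the hindlimb and tail, had levels of 0.26, 0.02 and -0.54 in WT and -0.28, -0.47 and -0.75 in KI muscles. It was at least 125-fold higher in muscle than in liver, 127-fold than in brain and 91.1-fold than in heart, with adjusted p of 2.85e-17, 5.39e-17 and 5.89e-16. These were the smallest p of any *Hox* gene in the 3 comparisons. *Hoxc11* was well above background on no array outside muscle and passed the filter through muscle alone. Its p set muscle against background signals, with standard deviations of 0.35 in liver, 0.42 in brain and 0.23 in heart. The order of p is therefore no measure of how far *Hoxc11* exceeds other *Hox* genes.

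*Hoxa10* ran from 0.42 to 1.16 in muscle (median 0.90), and was at least 271-fold, 251-fold and 197-fold higher there than in liver, brain and heart (adjusted p = 4.72e-15, 1.24e-14 and 6.97e-14). *Hoxa11*, needed for the forearm and lower leg, was more variable among muscles, from -4.68 to -1.16 (median -2.21). Its bounds were 25.3-fold over liver, 25.7-fold over brain and 18.4-fold over heart. *Hoxa10* and *Hoxa11* thus had no measured level outside muscle, and every muscle lay above every other array.

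*Hoxa7*, a gene of thoracic identity, was measured in all 4 tissues. It ran from 2.45 to 2.98 in muscle (median 2.63), from -2.71 to -1.86 in heart (median -2.36), from -4.88 to -3.99 in liver (median -4.58) and from -5.65 to -3.88 in brain (median -4.92). Muscle exceeded heart 32.1-fold (log2 difference 5.01, SE 0.24, adjusted p = 2.40e-12), liver 144-fold (7.17, SE 0.24, adjusted p = 1.24e-15) and brain 180-fold (7.49, SE 0.24, adjusted p = 2.16e-15). Heart exceeded liver 4.48-fold (adjusted p = 1.41e-07) and brain 5.59-fold (adjusted p = 1.94e-08), while liver and brain differed by -0.32 (SE 0.24, adjusted p = 0.228). The order was muscle, heart, then liver and brain, whose ranges overlapped.

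**Figure D2:**
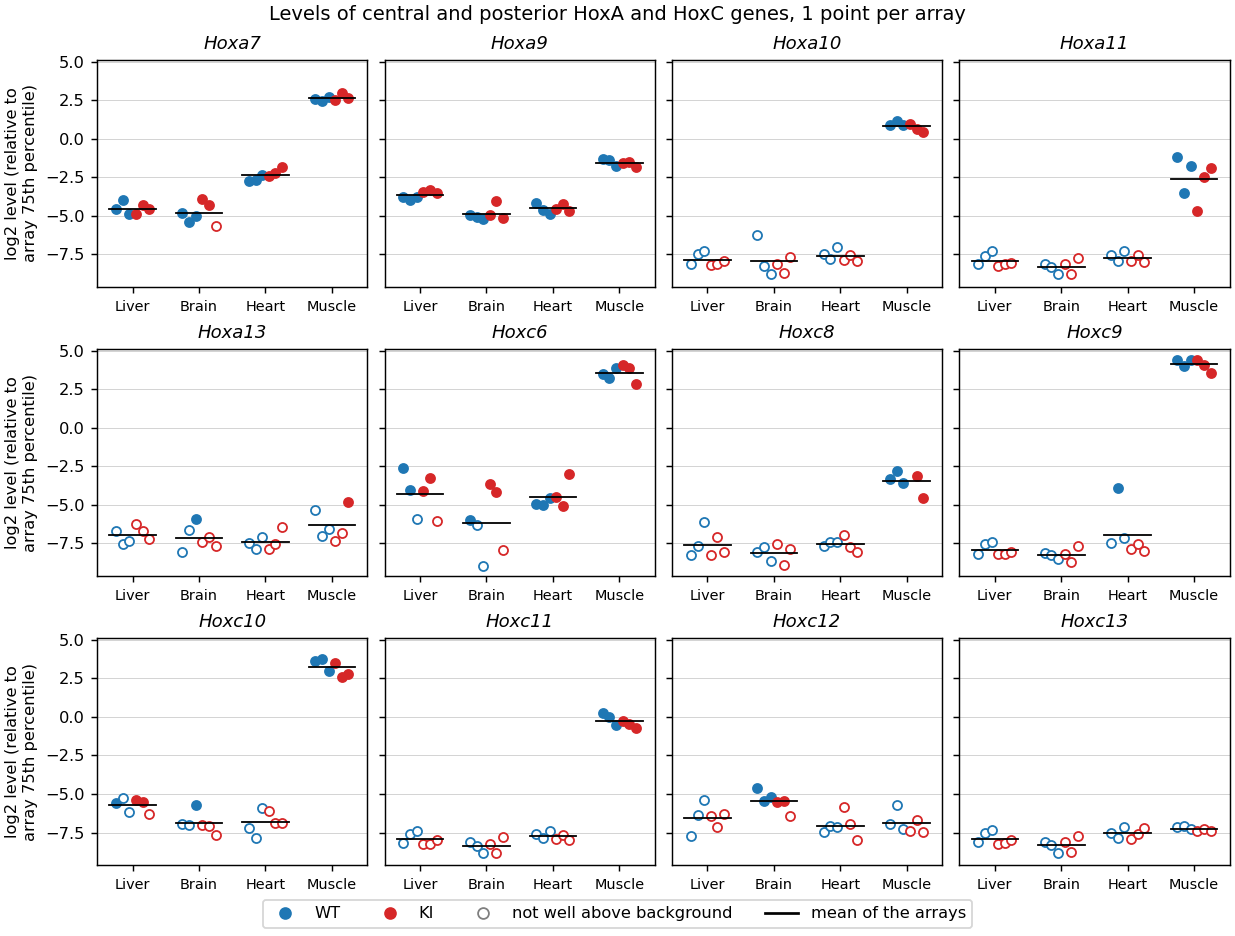
Log2 level, with the 75th percentile of each array at 0, for 12 central and posterior *Hoxa* and *Hoxc* genes in 4 tissues, with 1 point per array, open where the array was not well above background, and the mean of the arrays as a bar. *Hoxc9* lies between 3.54 and 4.43 in muscle and *Hoxc12* and *Hoxc13* have no filled point there.

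The remaining muscle genes of the *Hoxc* cluster were *Hoxc4*, *Hoxc5*, *Hoxc6* and *Hoxc8*. *Hoxc4* ran from 1.34 to 1.93 in muscle (median 1.72), *Hoxc5* from -1.87 to -0.49 (median -0.96) and *Hoxc6* from 2.87 to 4.06 (median 3.69). *Hoxc4* and *Hoxc6* are genes of cervical and brachial levels. *Hoxc6* in muscle was 238-fold liver, 268-fold heart and 847-fold brain, although the other tissues varied, from -6.05 to -2.58 in liver (median -4.05), -5.08 to -2.98 in heart (median -4.74) and -8.94 to -3.62 in brain (median -6.14). Without the 3 arrays that stood apart, *Hoxc6* in muscle was 417-fold heart. *Hoxc4* was well above background in 2 livers, 4 brains and 2 hearts. Its muscle level was 253-fold liver (adjusted p = 1.00e-05), 161-fold heart (adjusted p = 6.83e-05) and 55.6-fold brain (adjusted p = 0.000333). The size of the last 2 depended on single mice. Against heart it was 98.2-fold without KI2, 281-fold without KI3 and 460-fold without the 3 arrays that stood apart. Against brain it was 30.3-fold without WT3, 87.4-fold without KI1, 83.6-fold without KI2 and 23.5-fold without KI3, with adjusted p of 0.00418 or less. *Hoxc8* ran from -4.55 to -2.82 on the 5 muscle arrays with a value, since its spot in muscle KI1 had an outlier flag and the fit drops that sample. It was at least 9.96-fold higher in muscle than in heart (adjusted p = 1.05e-07).

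Among the *Hoxb* genes, *Hoxb7* to *Hoxb9* were higher in muscle than in each of the other tissues. *Hoxb6* ran from 0.82 to 1.83 in muscle (median 1.46) and from -0.51 to 0.33 in heart (median -0.15), with a limma adjusted p of 0.156 between them. These ranges did not overlap. The fit shares a single estimate of the spread over all tissues, and the brains, from -8.34 to -1.39, widen it. In liver *Hoxb6* ran from -5.82 to -3.65 (median -4.45), 66.0-fold below muscle (adjusted p = 4.99e-06). *Hoxb7* ran from -1 to -0.34 in muscle (median -0.61) and from -5.20 to -3.02 in liver (median -3.95), and was well above background in no heart. It was at least 36.2-fold higher in muscle than in heart (adjusted p = 1.24e-07) and 10.2-fold higher than in liver (adjusted p = 1.38e-05). *Hoxb8* (from -3.86 to -1.97 in muscle) and *Hoxb9* (from -5.15 to -3.32) exceeded heart by 12.4-fold or more and by 7.2-fold or more (adjusted p = 7.28e-06 and 8.53e-06).

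In contrast, *Hoxb2* to *Hoxb5* were not called between muscle and liver or between muscle and heart, except *Hoxb3* against liver, a call that its second probe did not give (adjusted p = 0.298). *Hoxb2*, a hindbrain gene, ran from -2.87 to -1.41 in muscle (median -2.06), from -2.94 to -2.07 in liver (median -2.66) and from -2.36 to -0.70 in heart (median -1.41). *Hoxb4*, known for its part in blood stem cells, ran from -1.39 to 0.01 in muscle (median -1.19), from -1.28 to -0.76 in liver (median -1.12) and from -1.76 to 0.14 in heart (median -0.86). *Hoxb5* ran from -2.61 to -2.13 in muscle (median -2.35), from -2.13 to -1.43 in liver (median -1.77) and from -4.82 to -3.27 in heart (median -3.96). Its adjusted p between muscle and heart was 0.241, although the ranges did not overlap. All groups share a single estimate of the spread in this fit, and the brains, with a range of *Hoxb5* from -8.95 to 0.33, widen it.

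The anterior *Hoxa* genes were also present in all tissues at unequal levels. *Hoxa3*, needed for the thymus and the parathyroid, ran from -0.04 to 0.31 in muscle (median 0.16), -2.61 to 0.22 in heart (median -1.41), -3.58 to -2.56 in liver (median -3.08) and -8.65 to -1.37 in brain (median -4.98). *Hoxa2*, a gene of the second pharyngeal arch, ran from -3.71 to -2.92 in muscle (median -3.29), -5.78 to -2.95 in heart (median -4.67) and -5.00 to -3.78 in liver (median -4.44). It was called between muscle and brain (log2 difference 2.70, SE 0.60, adjusted p = 0.000549, and 1.83 without KI3), and not between muscle and liver (adjusted p = 0.101) or heart (adjusted p = 0.114).

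*Hoxa4*, *Hoxa5*, *Hoxa6* and *Hoxa9* were higher in muscle than in liver and brain. *Hoxa4* ran from -2.94 to -1.85 in muscle (median -2.17) and from -4.60 to -3.68 in liver (median -4.33), a 3.84-fold difference (adjusted p = 0.00512). *Hoxa5*, a regulator of lung and sternum formation, ran from -2.33 to -2 in muscle (median -2.16) and from -8.43 to -4.72 in liver (median -7.02), where 2 arrays were well above background. It ran from -5.99 to -2.68 in heart (median -4.41) and from -8.96 to -1.59 in brain (median -5.75). *Hoxa6* differed little, with -3.58 to -2.96 in muscle (median -3.28) and -4.61 to -4.11 in liver (median -4.37), a 2.11-fold difference (SE 0.16 on the log2 scale, adjusted p = 7.72e-06). *Hoxa9* ran from -1.82 to -1.34 in muscle (median -1.55), -3.98 to -3.31 in liver (median -3.67), -4.85 to -4.20 in heart (median -4.59) and -5.21 to -4.04 in brain (median -5.02). Its 6 muscles lay above all other arrays, 4.24-fold over liver and 7.78-fold over heart (adjusted p = 2.25e-09 and 5.67e-11).

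The detected stretch of muscle did not reach paralogue 13 in any cluster. In *Hoxa* it ended between *Hoxa11*, on 6 of 6 muscles, and *Hoxa13*, on 1, the genes whose start regions are printed above. In *Hoxb* it ended between *Hoxb9*, on 6 of 6, and *Hoxb13*, on 0. In *Hoxc* it ended between *Hoxc11*, on 6 of 6, and *Hoxc12* and *Hoxc13*, on 0. In *Hoxd* it ended between *Hoxd10*, on 4 of 6, and *Hoxd11* and *Hoxd12*, on 0, with *Hoxd13* on 1. *Hoxa13* and *Hoxd13* are the genes of the hands and feet. The 1 muscle with *Hoxa13* was KI3 at -4.82, where the other muscles lay between -7.37 and -5.36, and the 1 muscle with *Hoxd13* was WT2 at -4.38, against -7.58 to -6.24.

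The *Hoxd* genes of muscle were *Hoxd4*, *Hoxd8*, *Hoxd9* and *Hoxd10*. *Hoxd4* ran from -1.12 to 0.14 (median -0.54), *Hoxd8* from -0.49 to 2.09 (median 0.67), *Hoxd9* from -3.52 to -0.53 (median -1.95) and *Hoxd10* from -7.56 to -2.46 (median -4.48). The liver had none of them well above background. Muscle was at least 76.9-fold, 233-fold, 38.9-fold and 5.50-fold above liver for these genes, in the order given (adjusted p = 9.20e-11, 6.16e-12, 1.38e-08 and 4.20e-05).

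In the heart, 8 of 30 *Hox* genes were higher than in liver and 4 lower. Of all probes, 66.7% were called in this comparison, 32.3% higher in heart and 34.4% lower. The median log2 difference was 0.23 for the *Hox* genes and 0.00 for all probes. Heart and liver shared no slide, so slide and tissue cannot be told apart in this pair either. The genes with the smallest p were *Hoxd4*, *Hoxd8*, *Hoxa7*, *Hoxb3* and *Hoxb6*, all higher in heart. *Hoxd4* ran from -2.96 to -1.31 in heart (median -2.36) and was well above background in 0 livers, at least 22.5-fold higher (adjusted p = 1.17e-08). *Hoxd8* ran from -4.18 to -2.69 (median -3.01) and was at least 15.4-fold above liver (adjusted p = 8.77e-08). *Hoxb3* ran from -2.03 to -0.79 in heart (median -1.56) and from -6.12 to -4.32 in liver (median -5.05), 13.1-fold (log2 difference 3.71, SE 0.43, adjusted p = 3.14e-07). A second *Hoxb3* probe had means of -4.38 in heart and -4.81 in liver, and was not called (adjusted p = 0.614). *Hoxb6* was 22.0-fold above liver (adjusted p = 0.000176).

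The 4 *Hox* genes lower in heart than in liver were *Hoxa9*, *Hoxb7*, *Hoxb9* and *Hoxc10*. Of these, *Hoxb7*, *Hoxb9* and *Hoxc10* were well above background in no heart, and were at least 3.53-fold, 2.35-fold and 1.81-fold higher in liver (adjusted p = 0.00368, 0.00348 and 0.00489). *Hoxb7* was well above background in all 6 livers, and *Hoxb9* and *Hoxc10* in 3. The call of *Hoxc10* was lost without WT2 (adjusted p = 0.0514), and normexp background correction turned its difference to 0.043. Without the hearts of KI1 and KI3 and the muscle of KI3, 10 *Hox* genes were called between heart and liver. These included *Hoxa4*, lower in heart by 1.88 on the log2 scale (difference -1.88, adjusted p = 0.0182).

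The brain was the tissue with the fewest steady *Hox* signals. Against liver, 3 of 30 *Hox* genes were higher and 10 lower in brain, where 79% of all probes were called, 33.4% higher and 45.6% lower. The median log2 difference was -0.41 for the *Hox* genes and -0.35 for all probes. *Hoxa9* (log2 difference -1.24, SE 0.17, adjusted p = 2.35e-06), *Hoxa6* (-0.90, SE 0.16, adjusted p = 4.89e-05), *Hoxb7* (-2.19, SE 0.53, adjusted p = 0.000929) and *Hoxb4* (-2.70, SE 0.68, adjusted p = 0.00137, and -1.86 without KI3) were lower in brain. The standard deviation of *Hoxb4* was 2.05 in WT and 2.77 in KI brains, against 0.26 and 0.18 in the livers. Its SE, from the spread shared by all tissues, is therefore too small for this pair. *Hoxd4*, *Hoxb8* and *Hoxc12* were higher in brain, at least 3.30-fold, 1.62-fold and 2.10-fold (adjusted p = 0.00037, 0.0266 and 0.0149). All 3 KI brains and 0 WT brains had *Hoxd4* well above background, and among WT mice its log2 difference from liver was -0.07. The calls of *Hoxb8* and *Hoxc12* were lost when single mice were left out, *Hoxb8* without WT1, KI1 or KI2 and *Hoxc12* without WT1 or KI2, with adjusted p of up to 0.18 and 0.139. Against heart, 14 of 30 *Hox* genes were lower in brain and 2 higher, *Hoxb9* and *Hoxc12*, where 67.7% of all probes were called and 39.9% were lower in brain. After normexp background correction, *Hoxb9* and *Hoxc12* were instead higher in heart, by 0.008 and 0.09. Without the 3 arrays that stood apart, 16 *Hox* genes were called between heart and brain. The 5 smallest p belonged to *Hoxa7*, *Hoxd8* (log2 difference 4.72, SE 0.48, adjusted p = 4.21e-08, and 5.32 without KI3, the 1 brain well above background), *Hoxb3* (3.02, SE 0.43, adjusted p = 4.49e-06), *Hoxd4* (2.77, SE 0.45, adjusted p = 1.83e-05) and *Hoxa6* (0.99, SE 0.16, adjusted p = 2.17e-05), all higher in heart. The second *Hoxb3* probe gave 1.46 and no call (adjusted p = 0.0767). *Hoxc11*, one of the 14, had no array well above background in either tissue, and its call was lost without WT3 or KI2.

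A further 7 *Hoxa*, *Hoxb* and *Hoxc* genes were well above background on part of the brains. In the brain *Hoxa4* ran from -8.88 to -3.72 (median -6.69) and *Hoxa6* from -5.60 to -4.85 (median -5.23), against -6.90 to -3.77 (median -5.04) and -4.60 to -3.90 (median -4.27) in the heart. *Hoxa4* was well above background in KI1 and KI2 alone among the brains and in 3 of 6 hearts. *Hoxb7* ran from -7.93 to -3.40 in brain (median -6.31), with 3 arrays well above background, and *Hoxb8* from -8.90 to -3.33 (median -6.95), with KI1 and KI2. *Hoxb9* ran from -7.57 to -4.08 in brain (median -5.38), with 4 arrays, and *Hoxc5* from -6.09 to -2.19 (median -5.00), with 5. *Hoxc5* was well above background in 3 hearts and 2 livers. *Hoxb6*, well above background in all 6 hearts, ran from -8.34 to -1.39 in brain (median -5.19), with 3 arrays well above background.

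*Hoxc12* was the one posterior gene detected in the brain and in no other tissue. Its levels were -4.59, -5.47 and -5.22 in WT and -5.51, -5.47 and -6.43 in KI brains, well above background on 5 of 6. The other tissues had 0 of 18 arrays well above background, with levels from -7.99 to -5.39. The highest of these lay within the range of the brains, and after normexp background correction *Hoxc12* was lower in brain than in liver, by 0.04.

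The *Hox* genes of paralogues 1 to 6 differed widely between single brains. The number of these 18 genes well above background was 12, 10 and 4 in the WT brains and 16, 17 and 3 in the KI brains, in the order of mice 1 to 3. *Hoxb5* had levels of -2.36, -4.49 and -8.95 in WT and 0.33, 0.32 and -7.97 in KI brains. *Hoxc4* had -3.90, -3.53 and -8.95 in WT and 0.19, -0.40 and -7.98 in KI brains. *Hoxa3* had -4.93, -5.02 and -8.65, and -1.37, -2.08 and -7.92. In each of these genes KI1 and KI2 were highest, WT1 and WT2 followed, and WT3 and KI3 were not well above background. *Hoxb2* (-4.86, -4.62 and -8.94 in WT, -1.37, -1.95 and -7.81 in KI brains) had the same order of mice.

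Markers of brain regions also differed between the brains. Lists of cerebellar, brainstem and olfactory neuron genes were chosen for this purpose after the *Hox* levels had been seen. The summed linear level of 5 cerebellar genes was 25.7, 7.95 and 2.23 in WT and 116, 46.3 and 2.06 in KI brains, so that WT3 and KI3 were again lowest and KI1 and KI2 highest. That of the 9 genes measured of 10 listed for brainstem and spinal cord was 1.49, 5.55 and 2.04, and 10.3, 5.72 and 2.29, lowest in WT1. *Gabra6*, of cerebellar granule cells, was well above background in WT1, WT2, KI1 and KI2 only, at 0.34, -2.38, 3.00 and 1.48. In contrast, *Emx2* of the forebrain ran from -2.37 to -1.20 over all 6 brains, and the summed level of 9 neuron genes from 327 to 568. The 4 olfactory bulb genes summed to 5.26, 9.10 and 3.27 in WT and 4.52, 5.11 and 1.41 in KI brains, highest in WT2. The share of all probes well above background was 72.7% in WT3, the highest of all 24 arrays, and 62.9% in KI3. The part of these differences in the *Hox* levels of the brains was not tested.

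**Figure D3:**
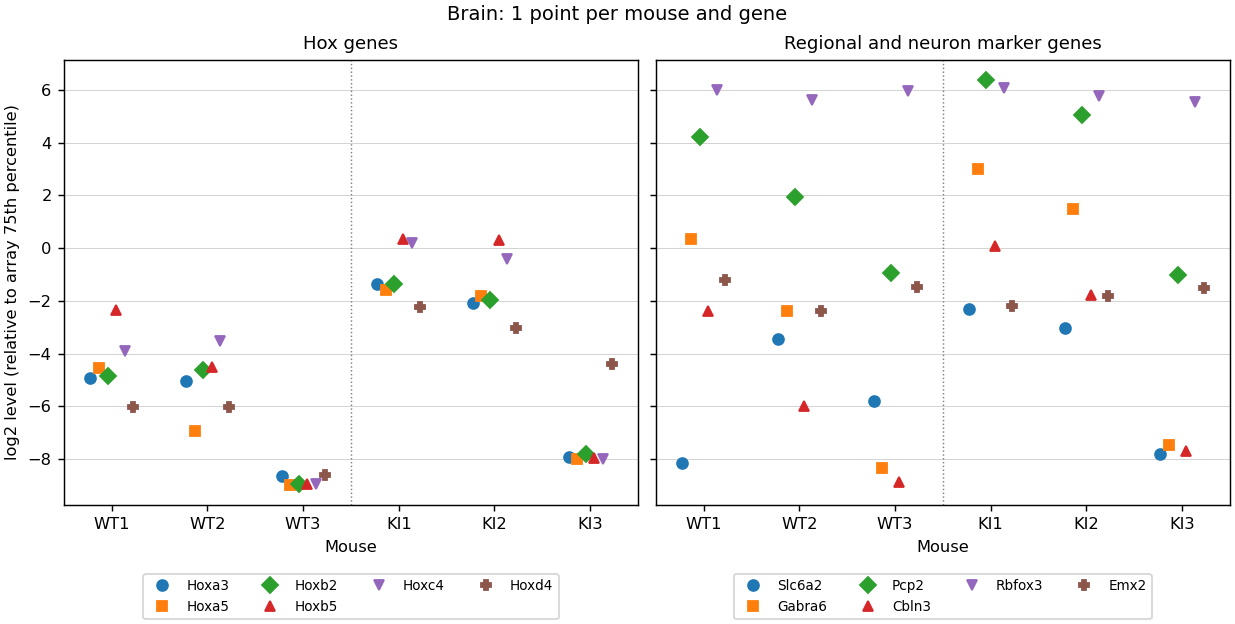
Log2 level, with the 75th percentile of each array at 0, in the 6 brains, with 1 point per mouse and gene, for 6 *Hox* genes on the left and 6 regional or neuron marker genes on the right. Apart from *Hoxd4*, *Hox* levels and the cerebellar genes *Gabra6* and *Cbln3* are lowest in WT3 and KI3 and highest in KI1 and KI2, while *Rbfox3* stays between 5.55 and 6.06.

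In the comparison of genotypes, limma called 0 *Hox* genes at an adjusted p of 0.05, of 16 tested in liver, 19 in brain, 17 in heart and 29 in muscle. It called 0% of all probes in each tissue as well. At an unadjusted p under 0.05 there were 1 *Hox* gene in liver, 2 in brain, 6 in heart and 0 in muscle, all higher in KI mice. The share of all probes with such a p was 2.13%, 2.62%, 7.51% and 2.47%, and the share also higher in KI mice was 1.25%, 1.11%, 5.1% and 1.44%. The interaction of genotype and tissue, tested over all 24 arrays, called 0 of 30 *Hox* genes and 0% of all probes, with adjusted p of 1 for every *Hox* gene. At an unadjusted p under 0.05 it had *Hoxb3*, *Hoxb9* and *Hoxd4*, and 2.93% of all probes. All values of this comparison rest on 3 mice of each genotype.

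In the liver the gene was *Hoxb9*, at -6.03, -7.73 and -5.43 in WT and -3.89, -4.96 and -4.85 in KI mice. It was well above background in 0 of 3 WT and 3 of 3 KI livers, and at least 2.93-fold higher in KI (log2 difference 1.83, SE 0.60, limma adjusted p = 1). *Hoxa9* was the other gene with all KI livers above all WT livers, at -3.79, -3.98 and -3.81 against -3.47, -3.31 and -3.55, a log2 difference of 0.41 (SE 0.19, limma adjusted p = 1). These are 2 of the 16 genes tested, and 2.77% of all probes had this order, among 5.85% with no overlap in either direction. The remaining 14 *Hox* genes of the liver had log2 differences between -0.58 and 0.43.

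In the brain the genes were *Hoxd4* and *Hoxb3*. *Hoxd4* had -6.01, -6.01 and -8.59 in WT and -2.24, -3.04 and -4.38 in KI brains, well above background in 0 WT and 3 KI brains. It was at least 9.83-fold higher in KI (log2 difference 3.65, SE 0.86, limma adjusted p = 1), and this was the one *Hox* gene of the brain with all KI above all WT mice, where 4% of all probes had this order, and 7.74% had no overlap in either direction. *Hoxc12* had all KI below all WT mice. In KI3, *Hoxb3*, *Hoxb4* and *Hoxd4* were the 3 of 18 *Hox* genes of paralogues 1 to 6 well above background. With the slide as a block the limma adjusted p of *Hoxd4* was 1. With the mouse as a block in a fit of all arrays its limma adjusted p was 0.14. *Hoxb3* had -4.58, -5.59 and -6.19 in WT and -2.36, -2.73 and -5.20 in KI brains (log2 difference 2.02, SE 0.82, limma adjusted p = 1). The median log2 difference of the 19 *Hox* genes tested in brain was 2.02, against -0.05 over all probes. The regional markers given above differed between the same mice.

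In the heart the genes included *Hoxa2*, *Hoxa3*, *Hoxa5*, *Hoxb4* and *Hoxd4*. *Hoxa2* had -5.78, -4.69 and -5.66 in WT and -3.43, -4.65 and -2.95 in KI hearts. *Hoxd4* had -2.96, -2.39 and -2.87, and -2.33, -1.79 and -1.31. In *Hoxa2* and *Hoxd4*, 2 of 3 such *Hox* genes of the 17 tested, all KI hearts lay above all WT hearts, as in 6.03% of all probes (14.7% had no overlap in either direction), with KI3 highest in each. *Hoxa3* (-2.61, -1.38 and -1.96 in WT, -0.16, -1.44 and 0.22 in KI), *Hoxa5* (-4.22, -5.98 and -5.99, and -3.15, -4.59 and -2.68) and *Hoxb4* (-1.56, -0.85 and -1.76, and -0.57, -0.86 and 0.14) overlapped between the genotypes. The log2 differences were 1.70 for *Hoxa2*, 1.52 for *Hoxa3*, 1.92 for *Hoxa5*, 0.96 for *Hoxb4* and 0.93 for *Hoxd4*, with a limma adjusted p of 0.646 for each.

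The hearts of KI1 and KI3 had the highest levels of *Hoxa2*, *Hoxa3*, *Hoxa5* and *Hoxb4*, and markers of fat and smooth muscle were high in the same hearts. The summed linear level of 8 fat cell genes was 290, 281 and 306 in WT and 437, 333 and 742 in KI hearts, and all 8 were well above background in KI1 and KI3 and 7 in the other hearts. The 4 brown fat genes summed to 57.1, 54.2 and 60.7 in WT and 118, 54.1 and 149 in KI hearts. Of 9 neuron genes, 5, 7 and 6 were well above background in WT and 9, 6 and 8 in KI hearts. Their summed level was 38.3, 26.9 and 55 in WT and 38.5, 52.4 and 45.9 in KI hearts, and did not set KI1 and KI3 apart. *Nefl* was well above background in KI1 and KI3 alone, at -2.44 and -0.83. The 5 smooth muscle genes summed to 111, 134 and 160 in WT and 385, 147 and 253 in KI hearts. *Myl7*, the atrial light chain, was -2.41, 6.64 and 7.47 in WT and 6.67, 5.03 and 8.33 in KI hearts. Without KI1 and KI3, the log2 differences of the KI2 heart were 0.73 for *Hoxa2*, 0.55 for *Hoxa3*, 0.80 for *Hoxa5*, 0.53 for *Hoxb4* and 0.96 for *Hoxd4*, with a limma adjusted p of 1 for each. The lone KI heart is assumed there to vary like the WT hearts. With the slide as a block and all 6 hearts, the limma adjusted p was 0.513 for each of these 5 genes.

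**Figure D4:**
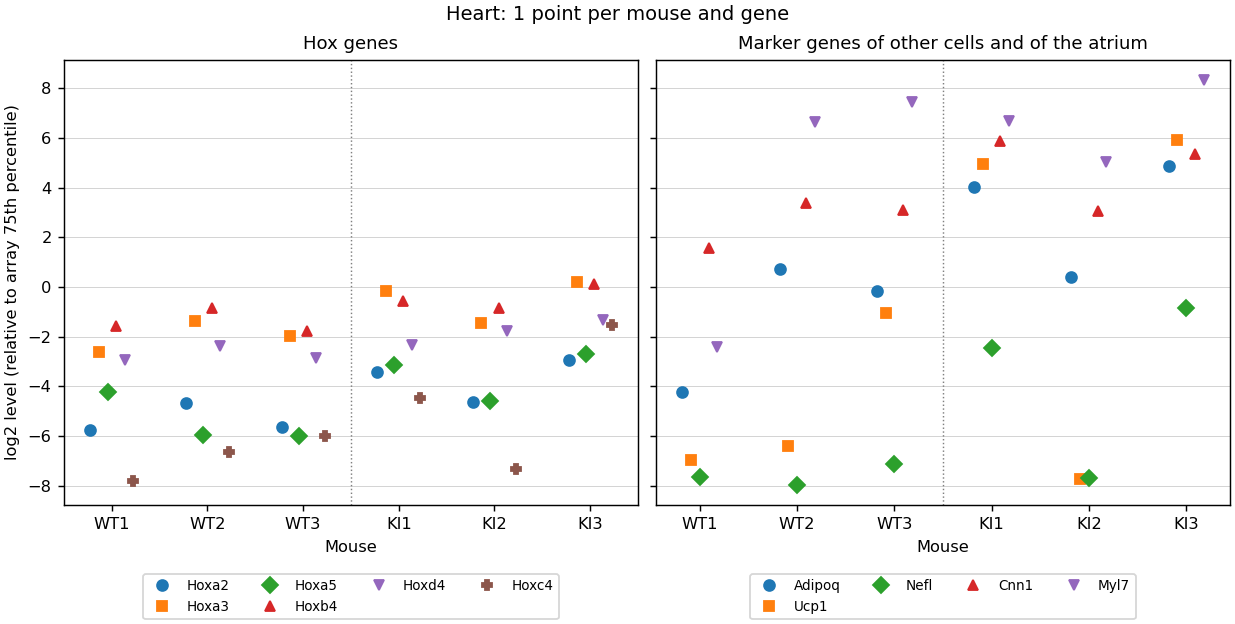
Log2 level, with the 75th percentile of each array at 0, in the 6 hearts, with 1 point per mouse and gene, for 6 *Hox* genes on the left and 5 marker genes of fat, neurons, smooth muscle and atrium on the right. The hearts of KI1 and KI3 hold the highest points of *Hoxa3* (-0.16 and 0.22) and of *Ucp1* (4.96 and 5.93).

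In muscle, no *Hox* gene had all mice of one genotype on one side of the other among the 28 with a value on every array, where 6.45% of all probes had no such overlap and 2.36% had all KI above all WT mice. The log2 differences of the 29 genes tested ran from -1.63 (*Hoxd10*, SE 1.01, limma adjusted p = 0.939) to 0.58 (*Hoxb8*, SE 0.47, limma adjusted p = 0.939). The *Hoxd* genes varied with the mouse. *Hoxd10* had -2.46, -4.86 and -4.09 in WT and -7.56, -5.01 and -3.73 in KI muscles, and *Hoxd9* had -0.53, -1.83 and -2.06, and -3.52, -2.36 and -1.57. In *Hoxa11*, *Hoxd8*, *Hoxd9* and *Hoxd10* alike, KI1 was the lowest muscle and WT1 was the highest, and these were the mice of 5 months.

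Fibre markers also differed between the muscles. The summed linear level of 5 slow fibre genes, a list chosen after the values had been seen, was 4.73, 13.6 and 19.6 in WT and 463, 4.24 and 88.4 in KI muscles. The highest value belonged to KI1. *Myh7*, the slow myosin heavy chain, was -0.25, -1.54 and 1.14 in WT and 6.26, -1.42 and 3.75 in KI muscles. The summed level of 8 fat cell genes ran from 253 to 1590 over the 6 muscles. The part of fibre type and fat in the *Hox* levels was not tested. *Hoxc9*, *Hoxc10* and *Hoxa7* varied less than the *Hoxd* genes among the same muscles, with ranges of 3.54 to 4.43, 2.60 to 3.74 and 2.45 to 2.98. Without the muscle of KI3, *Hoxd9* and *Hoxd10* had log2 differences of -1.46 and -2.48 and *Hoxb2* had 0.55 (limma adjusted p = 0.999 for each, with unadjusted p under 0.05). These are the largest differences of these genes when single mice are left out. Over all mice left out in turn, *Hoxd9* ran from -1.46 to -0.49, *Hoxd10* from -2.48 to -0.56 and *Hoxb2* from -0.18 to 0.55.

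**Figure D5:**
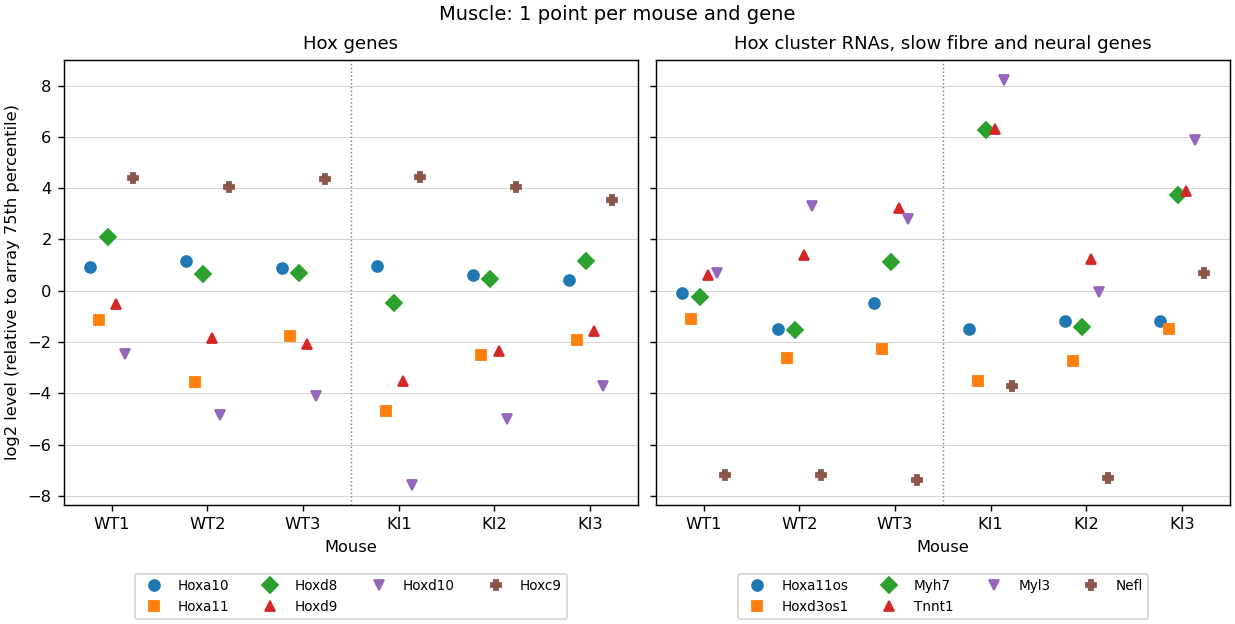
Log2 level, with the 75th percentile of each array at 0, in the 6 muscles, with 1 point per mouse and gene, for 6 *Hox* genes on the left and 6 *Hox* cluster RNAs, slow fibre genes and *Nefl* on the right. KI1 has the lowest *Hoxa11* (-4.68) and *Hoxd10* (-7.56) and the highest *Myh7* (6.26), and KI3 has *Nefl* at 0.69.

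Of 18 listed RNAs made from within the clusters, 6 were on the array and 5 were tested. *Hoxd3os1*, an antisense RNA of the *Hoxd* cluster, was well above background on 6 of 6 muscles and on 1 of 18 other arrays. It had -1.11, -2.62 and -2.29 in WT and -3.53, -2.75 and -1.48 in KI muscles, and was higher in muscle than in heart by 3.65 (SE 0.43, limma adjusted p = 9.90e-07). *Hoxa11os*, antisense to *Hoxa11*, was well above background on all 24 arrays, unlike *Hoxa11* itself. Its levels ran from -1.51 to -0.07 in muscle, -2.81 to -1.92 in heart, -3.57 to -3.30 in liver and -4.41 to -3.52 in brain, and it was called in all 6 pairs of tissues. *Hoxb5os* was well above background in all 6 livers and, of the brains, in KI1 and KI2, the brains with the highest *Hoxb5*. *Hottip*, an RNA from the posterior end of the *Hoxa* cluster next to *Hoxa13*, was well above background on no array.

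The partner proteins of Hox, the Pbx, Meis and Prep homeodomain factors, were present throughout. Of their 9 genes, 9 were well above background on every liver and brain array and 8 or 9 on every heart and muscle array. Against liver, 5 of 9 were higher and 1 lower in brain, 5 higher and 2 lower in heart, and 1 higher and 2 lower in muscle. Of all probes, 79%, 66.7% and 71.1% were called in these pairs, so that the share of partner genes called was at or below the background in brain and muscle. *Meis2* ran from 2.02 to 3.54 in brain, 1.98 to 2.38 in heart, -0.60 to -0.21 in liver and -2.44 to 0.02 in muscle, where KI3 was highest. It was lower in muscle than in heart by 3.72 on the log2 scale (difference -3.72, SE 0.28, limma adjusted p = 2.15e-09). *Pknox2* was higher in muscle than in liver by 4.68 (SE 0.32, limma adjusted p = 8.14e-11).

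Lists of other genes of position were compared in the same fit. Of 13 limb genes, 12 were higher and 0 lower in muscle than in liver, 11 higher and 1 lower than in brain, and 9 higher and 3 lower than in heart. Of all probes, 36.3%, 41.4% and 22.4% were higher in muscle in these pairs. Both *Tbx5* of the forelimb (-2.40 to -1.13) and *Tbx4* of the hindlimb (-0.79 to 0.17) were well above background on 6 of 6 muscles, as was *Pitx1* of the hindlimb (-3.95 to -1.12). *Tbx15* ran from 4.43 to 5.42 in muscle and from -6.12 to -2.80 in heart (log2 difference 9.19, SE 0.40, limma adjusted p = 5.40e-13). Of 13 genes of the forebrain, midbrain and their borders, 13 were higher in brain than in liver and 13 higher than in heart, where 33.4% and 27.7% of all probes were higher in brain. In muscle, 9 of these 13 were higher than in liver. *Emx2* was higher in brain than in liver by 5.84 (SE 0.22, limma adjusted p = 5.63e-15). Among 10 genes that regulate *Hox* genes in the hindbrain and the spinal cord, mostly of retinoic acid metabolism, 3 were higher and 4 lower in brain than in liver, against 33.4% and 45.6% of all probes. *Cyp26a1*, which breaks down retinoic acid, was lower in brain than in liver (log2 difference -7.33, SE 0.51, limma adjusted p = 7.77e-11).

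The cousins of the *Hox* genes outside the clusters were rare. *Pdx1*, the pancreatic factor, was well above background on all 6 muscles, at -4.34 to -3.14, and on no other array. *Evx1*, next to *Hoxa13*, was well above background on 4 brains and on no other array, at -6.27, -2.58 and -6.18 in WT and -1.97, -2.56 and -7.72 in KI brains. *Cdx2*, a regulator of posterior *Hox* genes in the embryo, was well above background on none. Polycomb genes, which keep *Hox* genes silent, were measured on all arrays, 28 or 29 of 29, and 14 of 14 genes of the opposing Trithorax group and the H3K27 demethylases were as well. Of the Polycomb genes, 13 were higher and 7 lower in muscle than in liver, and 10 higher and 4 lower than in heart. These are shares near the 71.1% and 43.5% of all probes called. *Cbx2* was lower in muscle than in liver (log2 difference -3.35, SE 0.23, limma adjusted p = 8.79e-11), and *Jarid2* higher (1.67, SE 0.12, limma adjusted p = 2.21e-10). *Kdm6b*, an H3K27 demethylase, ran from 1.94 to 2.81 in muscle and from 0.37 to 1.09 in liver (log2 difference 1.83, SE 0.20, limma adjusted p = 7.53e-08). None of the genes in these lists was called between the genotypes in any tissue.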

How the data were processed

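The authors hybridized Cy3-labelled total RNA of each sample to 1-color Agilent arrays and deposited scanner output of Feature Extraction 12.0.3.1, from which the processed signal intensity was used. A deposited table of the series, whose score values are z-scores within each array, served as an alternative. Control spots and spots with outlier flags were removed, spots of a probe averaged, and log2 intensities set against the 75th percentile of each array. Probes were named by RefSeq accession (28331 of 55681 named). With limma 3.58.1 in R 4.3.3, pairs of tissues were tested on all 24 arrays, over probes with 3 or more of the 6 arrays of a tissue well above background, and genotypes within each tissue on 6 arrays. P-values were adjusted by Benjamini-Hochberg over all probes, with a threshold of 0.05. The test was checked on simulated data with the same spread in every tissue. That check cannot show how spreads that differ between tissues affect the fit. The number of arrays limits the precision.

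The members and gene lists were chosen with earlier results of these data known. A few genes are not reported here by name. *Nefl* in muscle and *Emx2* in brain were singled out from their marker lists after their values had been seen. Genes named were the other *Hox* genes, with values by group for those not well above background on all arrays of all tissues, those with an unadjusted p under 0.05 between genotypes, the 5 with the smallest p in a pair of tissues, and up to 3 from each list. Gene names of other groups serve as markers of cells, and those for brain regions and slow fibres were chosen after the values were seen. Samples with the same number came from the same mouse. Over 36 pairs of tissues of a mouse, the deviations from group means correlated with r from -0.219 to 0.262 (median 0.047). Alternatives were normexp background correction (on the median signal, offset 50), quantile normalization, other filters, the mouse, slide or age as a block, single genotypes, second probes and leaving out each mouse. No coordinates of probes are given, since the array design is on an older build.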

Additional observations from a re-analysis of the deposited data

Results flagged for a closer look

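Within a tissue, 10 of 98 sets of 6 arrays had 1 array far from the others, with a gap over the range above Dixon's critical value for 6 samples, where sets with at least 1 array well above background were tested. Of these arrays, 6 were the single array of the tissue on which the gene was well above background, so that the set was tested because of that array. They were *Hoxd12* in the liver of WT2 at -1.56 (others -8.35 to -7.55), *Hoxd8* in the brain of KI3 at -5.06 (others -8.79 to -8.09), *Hoxd11* in the brain of KI2 at -4.82 (others -8.92 to -7.91) and *Hoxc10* in the brain of WT3 at -5.70 (others -7.65 to -6.92). The remaining pair were hearts, *Hoxc9* in WT2 at -3.88 (others -7.98 to -7.17) and *Hoxd9* in WT3 at -3.15 (others -7.63 to -6.15).

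The other 4 genes were well above background on all 6 arrays of the tissue, as were 53 sets in all, and chance alone gives about 1 in 20. *Hoxa9* in the brain of KI2 was at -4.04, against -5.21 to -4.93. *Hoxb4* in the muscle of KI2 was at 0.01, against -1.39 to -0.92. *Hoxb9* in the muscle of KI3 was at -5.15, against -4 to -3.32. *Hoxc6* in the heart of KI3 was at -2.98, against -5.08 to -4.46. The muscle and the heart of KI3 are among the arrays that stood apart in their marker genes.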

How the results depend on the processing

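Of 115 single *Hox* differences called between tissues, 71 were called under every alternative run and 44 lost the call under at least 1. Among KI mice only, 8 *Hox* genes were called between liver and brain and 7 between brain and heart, and the cause was not tested. That fit rests on fewer arrays. For none of the alternatives, here or above, is the share of all probes called given. A changed count is therefore no result about the *Hox* genes in particular. The count of detected *Hox* genes was 25 in liver by the positive and significant flag, and 2 in brain if all 6 arrays had to be well above background. Normexp background correction turned *Hoxc12* (-0.039 between brain and liver, 0.09 between heart and brain, 0.633 between muscle and brain), *Hoxc10* (0.043 between heart and liver) and *Hoxb9* (0.008 between heart and brain), and the WT mice alone turned *Hoxd4* (-0.069 between brain and liver). The cause was not tested. Calls lost when single mice were left out included those of *Hoxa2*, *Hoxa3*, *Hoxb2*, *Hoxb8*, *Hoxc6* and *Hoxc12* between liver and brain, *Hoxa5*, *Hoxc10* and *Hoxd9* between liver and heart, *Hoxa2*, *Hoxc9* and *Hoxc11* between brain and heart, and *Hoxa5* between brain and muscle. With the mouse as a replicate block, 13, 12, 25, 17, 29 and 20 *Hox* genes were called, in the order brain and liver, heart and liver, muscle and liver, heart and brain, muscle and brain, and muscle and heart. Between genotypes and in the interaction, 0 *Hox* genes were called under every alternative run, with the block included. The main fits called 0% of all probes there, so the 0 is not particular to the *Hox* genes.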
